A study of Mus musculus with 8 samples.

Results

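The genes described are 10 members of the Polycomb complexes: Ezh2, Suz12, Eed, Jarid2, Mtf2, Rnf2, Ring1, Cbx7, Pcgf6 and Kdm2b, of 21951 protein-coding genes in GENCODE release M21 (mm10). For each gene, the tag clusters on its own strand were taken whose dominant TSS lay between 500 bp upstream of the gene start and the gene end. A tag cluster is a group of neighbouring capped 5' ends of RNA, and its dominant TSS is the base with the strongest signal in it. Of the 10 genes, 9 had at least 1 cluster, and they held 81 clusters in each line, of 32857 clusters in wild-type E14 and 33005 and 32870 in the knockout clones A1 and C7.

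CAGE-seq captures the cap of RNA and reads the 5' end of the cDNA, so that start sites are mapped to the base. Nuclear RNA was used from mouse embryonic stem cells (mESCs) of the E14 line, wild type (3 libraries), and from 2 lines in which both Pwwp2a and Pwwp2b were knocked out (DKO), clone A1 (2 libraries) and clone C7 (3 libraries). All cells were kept undifferentiated in serum with LIF, and each DKO line is 1 clone, so a difference between a clone and E14 cannot be told apart from a property of that clone. The libraries of a line were merged before clusters were called, so each line gave 1 set of clusters, with no replicates, no p-values, no level of expression and no depth in the file used here. The study asked whether PWWP2A and PWWP2B, which bind H3K36me3 in gene bodies together with histone deacetylases, limit initiation of transcription inside genes.

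Polycomb proteins keep developmental genes silent and work in 2 kinds of complex. Polycomb repressive complex 2 (PRC2) methylates lysine 27 of histone H3. EZH2 is its methyltransferase, SUZ12 and EED hold the core together, and JARID2 and MTF2 are accessory subunits that help bring it to chromatin. Polycomb repressive complex 1 (PRC1) ubiquitylates histone H2A through the E3 ligase RING1B, the product of Rnf2, or its paralog RING1A, the product of Ring1. In canonical PRC1 a CBX protein such as CBX7 reads the mark made by PRC2, whereas variant forms contain other subunits, among them PCGF6 and the CpG-binding protein KDM2B.

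The identity of the cells was checked with marker genes. All 8 embryonic stem cell genes (Pou5f1, Sox2, Nanog, Zfp42, Esrrb, Klf4, Tdgf1 and Dppa5a) had a promoter cluster in each line. Of the genes of other cell types, 0 of 3 mesendoderm genes (T, Mixl1, Eomes), 2 of 4 primitive endoderm genes (Sox17 and Sox7, but not Gata4 or Gata6), 1 of 3 neural genes (Sox1) and 2 of 2 fibroblast genes (Col1a1 and Thy1) had 1 or more, and these counts were equal between the lines. The file gives no level for any of them, and their part in the results was not tested. Of the targeted genes, Pwwp2a had 1 promoter cluster and 1 exonic or intronic cluster in every line, including both DKO clones. Pwwp2b had none in any line, so cluster positions gave no check of the knockout.

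Most of the 10 listed Polycomb genes carried more clusters than the typical gene. In E14, 11457 coding genes (52.2%) had a cluster, with a median of 1 and an upper quartile of 2 per gene, whereas the 9 Polycomb genes with a cluster had a median of 5. Jarid2 had 39 clusters, Mtf2 13, Cbx7 8, Kdm2b 7, Suz12 5, Eed 4, Ezh2 2, Rnf2 2 and Pcgf6 1, and each of these counts was identical in E14, A1 and C7. Among coding genes with a cluster, 0.0873% had as many as Jarid2 or more, 1.23% as many as Mtf2 or more and 3.67% as many as Cbx7 or more. Ring1, a short gene of 3.9 kb, had none in any line. These counts were not adjusted for gene length, which reached 192.2 kb in Jarid2. Nor were they adjusted for expression, which the file does not give.

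**Figure D1:**
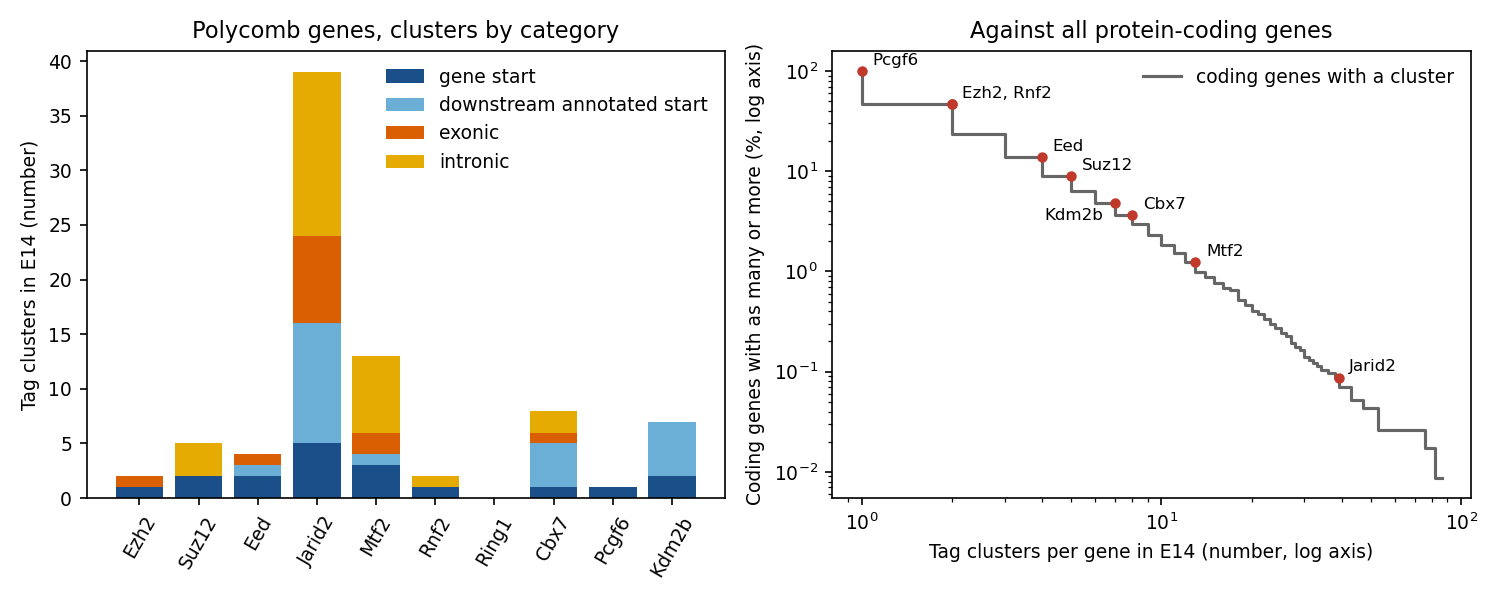
Left, number of tag clusters in E14 (y axis) for each Polycomb gene, with bars divided by category. Right, share of coding genes with a cluster that have as many clusters or more (y axis, %, log axis) against the number per gene (x axis, log axis), with the Polycomb genes as red points; Jarid2, with 39 clusters, lies at 0.0873%.

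Clusters within 500 bp of an annotated transcript start were called promoter clusters, and the others exonic or intronic. In each line 40 of the 81 clusters (49.4%, 95% Wilson interval 38.8 to 60) were promoter clusters, 13 (16%, 9.63 to 25.5) were exonic and 28 (34.6%, 25.1 to 45.4) were intronic. Over all clusters within genes in E14, the shares were 73.1%, 15.7% and 11.2%, so the intronic share of the 81 clusters was higher and their promoter share lower. These intervals cover counting error only, and clusters of 1 gene share a transcript. Jarid2 alone held 48.1% of the 81 clusters, and in the other 8 genes with a cluster 24 of 42 (57.1%, 42.2 to 70.9) were promoter clusters. Of the 28 intronic clusters, 15 were in Jarid2 and 7 in Mtf2. Suz12 had 3, Cbx7 2 and Rnf2 1, and the other genes had 0, so the higher intronic share does not describe each gene. Of the 40 promoter clusters, 18 lay within 500 bp of the gene start itself and 22 at annotated starts further downstream. Exonic or intronic clusters, together called internal here, were present in 7 of the 9 genes with a cluster, whereas 23.1% of coding genes with a cluster had 1 or more. This was not particular to the Polycomb genes. Of the 8 embryonic stem cell marker genes, 7 had internal clusters, which made up 56 of their 82 clusters in E14. Many internal clusters of the Polycomb genes were narrow by interquantile width. This is the span between the positions where 0.1 and 0.9 of the signal of a cluster is reached. Internal clusters 3 bp wide or more in E14 were present in 4 of the 9 genes (Suz12, Jarid2, Mtf2 and Cbx7; 44.4%, 18.9 to 73.3), beside 15.2% of coding genes with a cluster, and those of Ezh2, Eed and Rnf2 were all narrower.

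**Figure D2:**
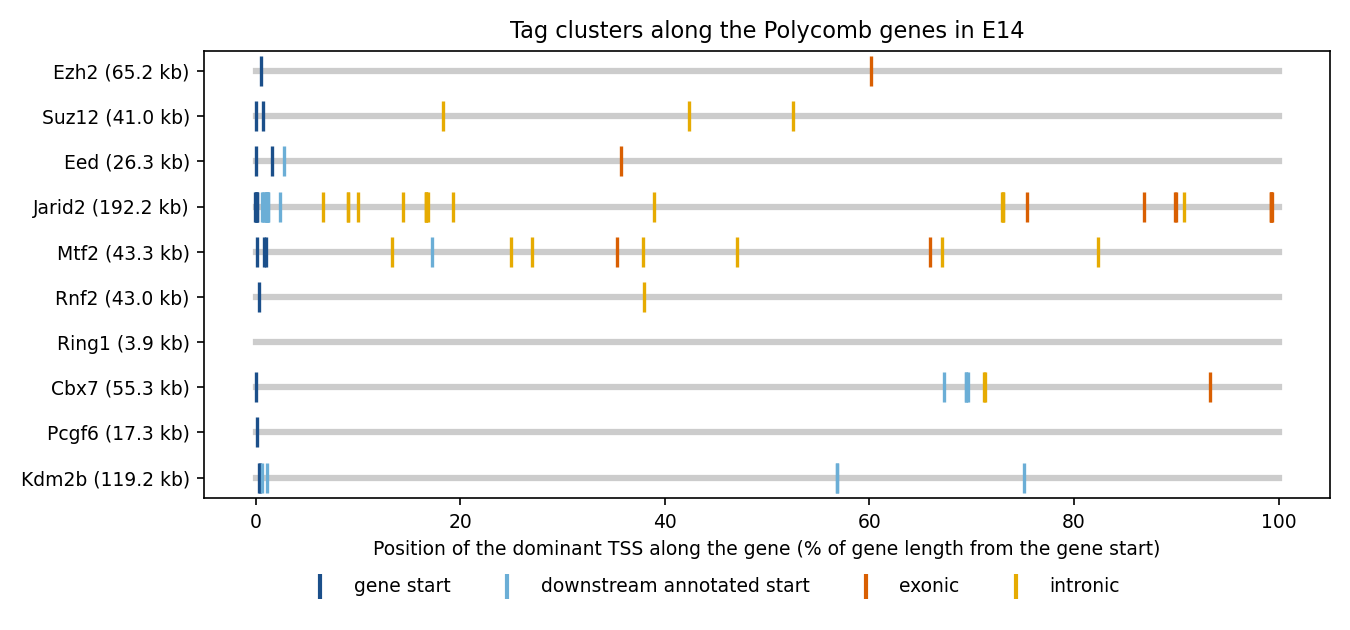
Position of each dominant TSS in E14 along the gene (x axis, % of gene length from the gene start), with 1 row per Polycomb gene and 1 tick per cluster, coloured by category. Clusters crowd at the start of Jarid2, most of those of Cbx7 and 3 of the 7 of Kdm2b lie far downstream, and Ring1 has none.

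The bases at the dominant TSS differed in frequency between promoter and exonic clusters, so 5 of each are shown, taken as examples from the 33 promoter clusters and 13 exonic clusters with letters. Each is 30 bases of the strand of the gene, 5' to 3', from mm10 (GRCm38), with the base before the dominant TSS of E14 and the dominant TSS itself in capitals. The promoter examples lie at chr6:47595014-47595043 (Ezh2, minus strand), chr13:44730776-44730805 (Jarid2, plus strand), chr15:79932559-79932588 (Cbx7, minus strand), chr19:47050872-47050901 (Pcgf6, minus strand) and chr5:122900343-122900372 (Kdm2b, minus strand). All but that of Cbx7, which comes from a GENCODE transcript, were taken from RefSeq promoter windows of the same assembly.
Ezh2 cluster 1: cgattgggttgctgCGtttggcgctcggtc
Jarid2 cluster 7: gggactacaacttcCAgaagatcaagggga
Cbx7 cluster 5: ccgccgcggccccgCAgctccacccccggc
Pcgf6 cluster 1: agggggctcgtgctCAactcgcgcgctagc
Kdm2b cluster 7: cccgccccctcccgCGcgggcgtgcgaggc

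The exonic examples were read from GENCODE transcripts. They lie at chr6:47556093-47556122 (Ezh2, minus strand, exon 5 of 20), chr7:89971561-89971590 (Eed, minus strand, exon 4 of 12), chr13:44902252-44902281 (Jarid2, plus strand, exon 8 of 19) and chr5:108094214-108094243 (Mtf2, plus strand, exon 9 of 15), all in coding sequence, and at chr15:79919501-79919530 (Cbx7, minus strand), in exon 4 of a transcript without coding sequence.
Ezh2 cluster 2: ttccttatatggggGAtgaagttctggatc
Eed cluster 4: tgccattcacagggGGagatacggttattg
Jarid2 cluster 33: aatgtcatctctggGTgcaggtacaaacag
Mtf2 cluster 11: ttaatgaaaactggGAtagattgcaccctg
Cbx7 cluster 8: ccaggctccttgggAGgcaagttttctctc

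A pyrimidine before a purine (C or T, then A or G), the usual step at the start site of mammalian promoters, was present in all 5 promoter examples and in none of the exonic ones, but the classes overlapped. Letters were available for 33 of the 40 promoter clusters, and 22 of these (66.7%, 49.6 to 80.2) had the step and 11 did not, beside 74.4% with the step among all promoter clusters of E14 with letters. All 13 exonic clusters had letters and 0 had the step, which allows a share of up to 23.1%, beside 10.5% of all exonic clusters. The base before the dominant TSS was G in 12 of the 13 exonic clusters (92.3%, 66.7 to 98.6), beside 71.8% of all exonic clusters, and in 4 promoter clusters (12.1%), beside 14.1% of all promoter clusters. A run of GGG stood before it in 7 of the 13 exonic clusters (53.8%), beside 39.8% of all exonic clusters, and in the same 4 promoter clusters (12.1%, beside 6.39% of all promoter clusters), which were Suz12 cluster 2, Jarid2 clusters 12 and 14 and Mtf2 cluster 5. The counts of G were chosen after the letters had been seen. The exception is Cbx7 cluster 8, with A before the dominant TSS. No letters were available for the 28 intronic clusters.

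Among the core subunits of PRC2, Ezh2 (chr6:47530139-47595341, minus strand) had the simplest pattern. The dominant TSS of its only promoter cluster was 47595028 in every line, 2 bp from the start of the transcript for the 746-residue protein. Its other cluster was 2 bp wide and lay 39.23 kb downstream in coding exon 5, where E14 had its dominant TSS at 47556107 and both clones at 47556106. Annotated starts of shorter coding transcripts of Ezh2, at 17.7 kb for 704 residues and at 54.6 kb for 126 residues, had no cluster within 500 bp.

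Suz12 (chr11:79993106-80034123, plus strand) had 2 clusters at the gene start and 3 in introns. The dominant TSS of the first was 79993107 in every line, 1 bp from the annotated start. The second cluster counts as a promoter cluster by distance, although it lies in the coding part of exon 1, and its dominant TSS was 79993399 in E14 and C7 but 79993390 in A1. Unlike the first, it had a G before the dominant TSS, as most exonic clusters did:
Suz12 cluster 2: gaggcggcttcgggGGttcggcggcggcgg
This window is chr11:79993384-79993413. The intronic clusters lay in introns 4, 5 and 7 at 7.50, 17.36 and 21.54 kb from the gene start, with interquantile widths of 8, 11 and 16 bp in E14.

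Eed (chr7:89954654-89980983, minus strand) had 3 promoter clusters within its first kilobase and 1 exonic cluster. The dominant TSS of the first was 89980966 in every line, 17 bp into the gene. In the second, the widest of the gene, it was 89980551 in E14 and C7 but 89980561, 10 bp upstream, in A1. The exonic cluster in coding exon 4, 9.41 kb downstream, was 2 bp wide, its dominant TSS being 89971575 in E14 and A1 and 89971574 in C7, and it lay 723 bp from the annotated start of a retained-intron transcript of Eed.

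The accessory subunit Jarid2 (chr13:44729474-44921643, plus strand) had 16 promoter clusters, a number that 5 coding genes exceeded, and 23 internal clusters, which 14 exceeded. The first 15 promoter clusters lay within 2401 bp. The 5 at the gene start lay near annotated starts of transcripts for 80 and 58 residues and of a processed transcript. In the widest, cluster 7, the dominant TSS was 44730791 in every line, 1.32 kb downstream and 17 bp from the start of a transcript for the full-length protein of 1234 residues. Clusters 8 to 16 followed at 1.55 to 4.57 kb from the gene start. The annotated start of a transcript for 1029 residues, 111.2 kb downstream, had no cluster near it, the nearest lying 28903 bp away.

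**Figure D3:**
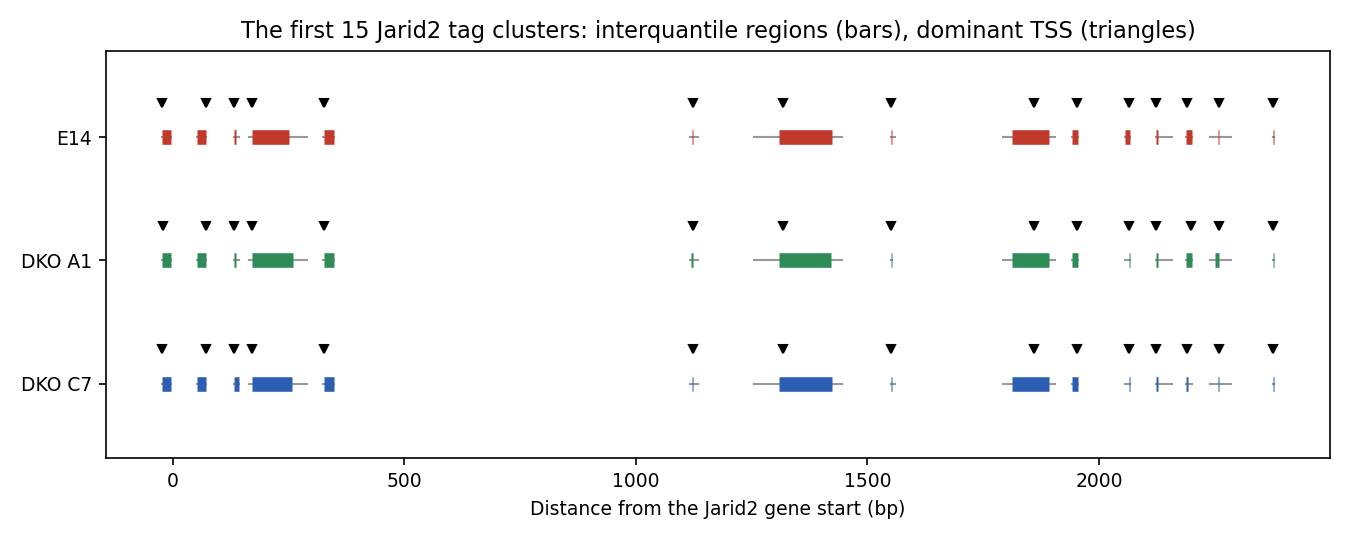
The first 15 Jarid2 clusters by distance from the gene start (x axis, bp) in E14, DKO A1 and DKO C7, with whole clusters as grey lines, interquantile regions as coloured bars and dominant TSSs as triangles. The same 15 clusters stand in each line, the widest around 1317 bp.

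Inside Jarid2, 15 clusters were intronic and 8 exonic. Intron 2 held 11 of the intronic clusters, from 12.60 to 74.78 kb downstream of the gene start, intron 4 held 3 and intron 8 held 1. The 3 in intron 4 lay at 140.12, 140.42 and 140.46 kb. Of the exonic clusters, 4 lay in coding sequence of exons 5, 7 and 8, and 4 in the last exon, exon 19, in the 3' UTR between 190.72 and 190.85 kb. Most internal clusters of Jarid2 were narrow, and 11 of the 23 had an interquantile width of at least 3 bp in E14.

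Mtf2 (chr5:108065674-108109004, plus strand) had 3 clusters at the gene start, 1 at a downstream annotated start, 2 exonic clusters in coding exons 2 and 9 and 7 intronic clusters. The dominant TSS of its first cluster was 108065716 in every line, exactly at an annotated start. Internal clusters were spread from 5.78 to 35.68 kb, and 1.1% of coding genes with a cluster had as many as its 9 or more. In the intronic cluster at 16.40 kb it was 108082074 in E14 and C7 but 108082064 in A1.

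The 2 core ligases of PRC1 differed in that Rnf2 had clusters and Ring1 had none. Rnf2 (chr1:151458004-151500955, minus strand) had 1 promoter cluster, with 151500809 as the dominant TSS of every line, 2 bp from the start of the transcript for the 336-residue protein, and 1 intronic cluster of 2 bp at 16.31 kb. For Ring1 (chr17:34020792-34024680, minus strand), the nearest cluster upstream on the same strand lay 3.38 kb away in E14 and C7 and 3.37 kb away in A1, at H2-Ke6. The nearest downstream lay 20.51 kb away in each line, at H2-K1. The file lists only clusters that passed the caller, and a low level of Ring1 initiation would not be listed.

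The canonical subunit Cbx7 (chr15:79915807-79971119, minus strand) had starts far apart from each other. A cluster at the gene start, where 79971123 was the dominant TSS of every line, lay 4 bp from the start of a transcript for 106 residues. The other 4 promoter clusters lay 37.25 to 38.55 kb downstream. One at 37.25 kb lay near the start of a transcript for 180 residues, and its dominant TSS was 79933871 in E14, 79933863 in A1 and 79933855 in C7, so that the 3 lines all differed within a cluster of 37 bp. In the widest, cluster 5, it was 79932573 in every line. The transcript for the longest protein, of 251 residues, starts 58 bp from the nearest cluster. Of its 3 internal clusters, 2 lay in intron 1 at 39.39 and 39.41 kb and 1 was exonic in a transcript that codes for no protein.

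Among the variant PRC1 genes, Pcgf6 (chr19:47033617-47050906, minus strand) had a single cluster, in which 47050886 was the dominant TSS of every line, 20 bp into the gene. Kdm2b (chr5:122870665-122989823, minus strand) had 7 clusters, all of them promoter clusters, and 1.33% of coding genes with a cluster had as many promoter clusters or more. When only coding transcripts defined the starts, 2 of the 7 counted as internal. The first 4 clusters of Kdm2b lay at 0.42 to 1.32 kb, near starts of transcripts for proteins of 1266, 1309 and 1303 residues. A pair of clusters at 67.68 and 67.73 kb stood at the start of a processed transcript. Cluster 7, at 89.47 kb, lay 2 bp from the start of a transcript for 776 residues, the short form of KDM2B, which is known to lack the demethylase domain. The dominant TSS of cluster 7 was 122900357 in E14 but 122900367 in both clones, 10 bp upstream. Kdm2b cluster 1 moved in the other direction and in A1 alone, from 122989399 in E14 and C7 to 122989373.

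Across the 9 genes with a cluster, 65 of the 103 annotated transcripts (63.1%) started within 500 bp of a cluster of the gene, beside 60.8% over all coding genes with a cluster. For coding transcripts the count was 37 of 45 (82.2%, 68.7 to 90.7), beside 73.2%. All 9 transcripts of Cbx7 and 14 of the 16 of Jarid2 had a cluster near their start, in contrast to 5 of the 15 of Ezh2 and 10 of the 20 of Kdm2b. Several transcripts share a start region, so 1 cluster can serve more than 1 of them. Predicted genes overlap Eed (Gm45120), Rnf2 (Gm36527) and Kdm2b (Gm43411 and Gm44574) on the same strand, and a cluster inside the overlap cannot be assigned to either gene by position alone, although none of the clusters lay nearer to a start of another gene than to one of its own.

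The lines were then compared by the presence of clusters. No Polycomb cluster was listed in some lines only: each of the 81 clusters of E14 overlapped a cluster in A1 and in C7, and 0 clusters of either clone lacked a partner in E14. With 81 clusters, a count of 0 allows a share of up to 3.7%. In the whole data set, 0.448% of A1 clusters were present in both clones and absent from E14, and 0.231% of E14 clusters were absent from both clones. Of coding genes with a cluster in E14, 3.81% had a cluster that a line lacked. At such background rates, 0 of 81 does not set the Polycomb genes apart. Start and end were identical in all 3 lines for 79 of the 81 clusters (97.5%), beside 98.5% of all shared clusters. The exceptions were Jarid2 cluster 8, which was 9 bp wide in E14 and C7 and 2 bp wide in A1, and Kdm2b cluster 7, which was 21 bp wide in E14 and C7 and 19 bp wide in A1. The study's methods describe merging of nearby clusters into consensus clusters across replicates, and with boundaries equal to the base in nearly all clusters, presence and extent may be largely set by how the clusters were built. How far the lines were called separately is not given in the sources used here, so the 0 is no measure of stability. A cluster that changed in strength would look the same here.

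Within the shared clusters the dominant TSS moved in some. It differed from E14 in 15 of 81 clusters in A1 (18.5%, 11.6 to 28.3), beside 23.8% of all shared clusters, and in 18 in C7 (22.2%, 14.5 to 32.4), beside 21.1%. Both intervals include the background, and in 53 clusters (65.4%, background 66.3%) all 3 lines had the same dominant TSS. At promoter clusters the counts were 7 of 40 in A1 (17.5%, background 21.7%) and 6 in C7 (15%, background 19.2%). At exonic clusters they were 2 of 13 (15.4%, background 25.4%) and 3 (23.1%, background 22.8%), and at intronic clusters 6 of 28 (21.4%, background 29.5%) and 9 (32.1%, background 24.3%). A move of at least 5 bp was seen in 8 clusters in A1 (9.88%, background 12.6%) and in 6 in C7 (7.41%, background 11.3%). In A1, 8 moves were downstream and 7 upstream, with a median size of 8 bp, and in C7 10 were downstream and 8 upstream, with a median of 1 bp. The dominant TSS moved in both clones in 5 clusters (6.17%, 2.67 to 13.6, background 11.2%), in A1 alone in 10 (12.3%, background 12.6%) and in C7 alone in 13 (16%, 9.63 to 25.5, background 9.94%). At the 28 intronic clusters, the counts were 1 in both clones (3.57%, background 12.4%), 5 in A1 alone (17.9%, background 17.1%) and 8 in C7 alone (28.6%, 15.3 to 47.1, background 11.9%). The last interval lies above its background. Of 56 shares of moves, extents and widths computed over all clusters and by category, with no adjustment for their number, 2 had an interval that left out the background, this one and a width given further on. Of these 8 clusters, 5 moved by 1 bp, and they belong to 3 genes, Jarid2 with 3, Mtf2 with 3 and Suz12 with 2. In 4 clusters (4.94%, background 8.48%) both clones had the same new position. These were Kdm2b cluster 7, with a move of 10 bp, and the Ezh2 exonic cluster, the Jarid2 intronic cluster at 140.46 kb and the Jarid2 exonic cluster at 144.89 kb, each with a move of 1 bp.

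**Figure D4:**
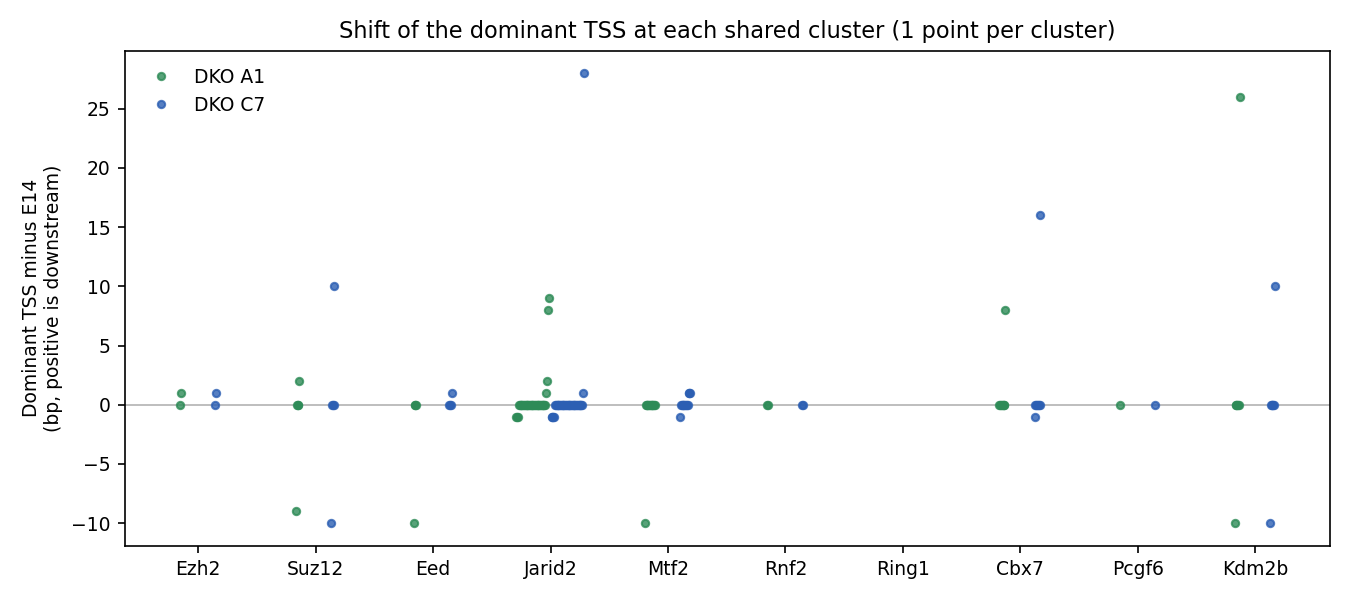
Position of the dominant TSS in DKO A1 (green) and DKO C7 (blue) minus that in E14 (y axis, bp, positive is downstream) for every shared cluster, with 1 point per cluster, grouped by gene. Most points lie at 0, and the farthest are a Kdm2b cluster in A1 at 26 bp and a Jarid2 cluster in C7 at 28 bp.

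The farthest move of each clone was not shared with the other clone. Besides Kdm2b cluster 1, with 26 bp in A1, the intronic Jarid2 cluster at 17.27 kb moved in C7, where the dominant TSS was 44746777, 28 bp downstream of the 44746749 that E14 and A1 shared. The Suz12 intronic clusters at 17.36 and 21.54 kb also moved in C7 alone, by 10 bp downstream and 10 bp upstream. At Rnf2 and Pcgf6 no dominant TSS moved in either clone.

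The interquantile width separates sharp from broad start regions. Promoter clusters of the Polycomb genes had a median of 18.5 bp in each of the 3 lines, beside 20 bp over all promoter clusters in E14 and 21 bp in both clones. Exonic clusters had a median of 2 bp in each line, beside 3 bp over all exonic clusters, and intronic ones 3.5 bp in E14 and C7 and 3 bp in A1, beside 3 bp. The widest promoter cluster of each gene was broader, with a median over 9 genes of 56 bp in E14, 60 bp in A1 and 61 bp in C7.

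Cbx7 and Jarid2 had the broadest of these in every line. Cbx7 cluster 5 measured 116 bp in E14, 134 bp in A1 and 116 bp in C7, and Jarid2 cluster 7 measured 114, 112 and 116 bp. Those of Pcgf6 (70, 68 and 70 bp), Rnf2 (64, 60 and 55 bp), Eed (56, 60 and 62 bp) and Ezh2 (48, 60 and 61 bp) were intermediate. Both clones were wider than E14 at Ezh2 and Eed and narrower at Rnf2. How often both clones differ in the same direction over all promoter clusters is not given here. The narrowest of these widest clusters were those of Suz12 (47, 46 and 47 bp), Kdm2b (32 bp in each line) and Mtf2 (29, 30 and 49 bp). The Mtf2 cluster was 1.69-fold wider in C7 than in E14, and in A1 it was not. Over the 81 clusters, 3 were at least 1.5-fold wider in A1 than in E14 (3.7%, background 5.34%) and 3 in C7 (3.7%, background 4.5%), while 2 were at least 1.5-fold narrower in A1 (2.47%, background 2.98%) and 5 in C7 (6.17%, background 3%). Among the 40 promoter clusters, 2 were wider in A1 (5%, background 4.68%) and 3 in C7 (7.5%, background 4.09%), 1 was narrower in A1 (2.5%, background 2.94%) and 4 were narrower in C7 (10%, 3.96 to 23.1, background 2.57%). The interval of the last lies above its background, and no other interval of these widths does. These 4 were below the median promoter width in E14: Suz12 cluster 2 (15 bp in E14 and A1, 10 bp in C7), Jarid2 cluster 11 (10 bp in E14, 3 bp in both clones), Jarid2 cluster 13 (12 bp in E14 and A1, 3 bp in C7) and Mtf2 cluster 5 (3 bp in E14 and A1, 2 bp in C7). With 1 merged set per line, the spread between libraries behind these widths is not known.

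**Figure D5:**
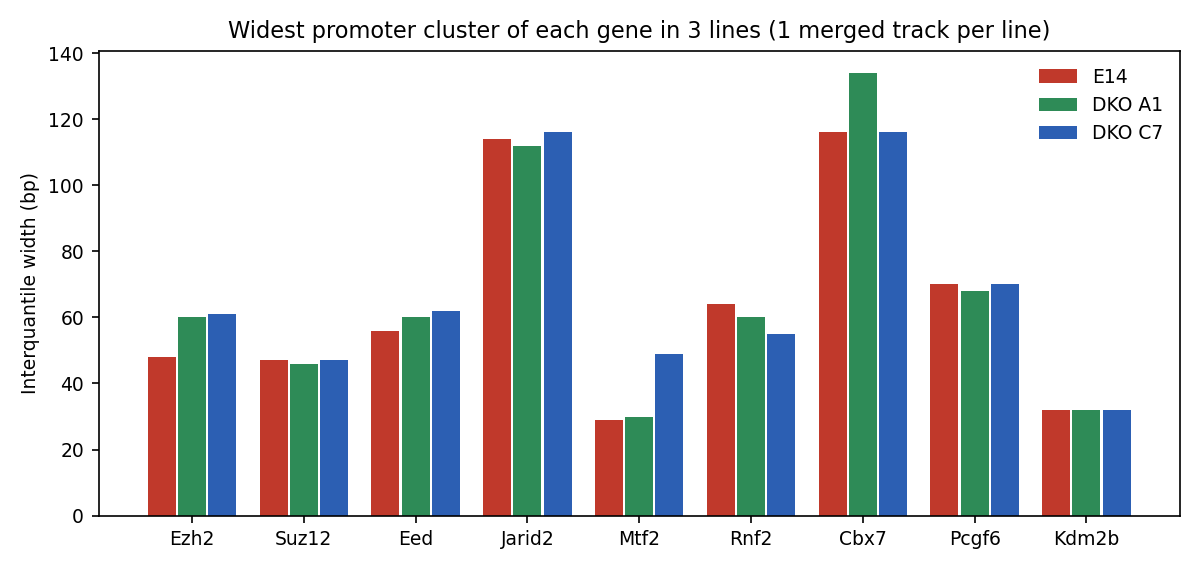
Interquantile width (y axis, bp, from 0) of the widest promoter cluster of each Polycomb gene with a cluster, with 1 bar per line and no error bars, since each line is 1 merged set. Cbx7 and Jarid2 are the widest at 112 to 134 bp, and Mtf2 differs most between lines, with 29 bp in E14 and 49 bp in C7.

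The promoters of the Polycomb genes were rich in CG dinucleotides. RefSeq windows from 250 bases before to 50 bases after the start were available for all 10 genes, 15 windows in all, of which the pair at the downstream Kdm2b start overlap each other. They held a median of 30 CG dinucleotides (2 to 49), beside 7 (0 to 67) over all 32851 windows. These were not limited to genes with a cluster, and the study found CpG islands at the majority of its annotated promoter starts. The comparison therefore does not set Polycomb promoters apart from other promoters active in these cells. The highest counts, 49 and 47, were those of the downstream Kdm2b start, and Suz12 had 41 and Ring1, which had no cluster, 37. The lowest, 2, was that of an Mtf2 start inside the gene, on chromosome 5 from 108077915 to 108078214.

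Short motifs were searched on both strands of these windows. The GC box GGGCGG was present in 11 of the 15 windows, from 8 genes, and in 35.7% of all windows. The CCAAT box CCAAT was present in 9 windows, from 7 genes, and in 37.4% of all windows. TATAAA was found in 1 window, of Jarid2 (13.6% of all windows). Of the E2F forms, TTTCCCGC was found in 1 window, of Suz12 (1.07% of all), and TTTGGCGC in 1, of Ezh2 (0.514% of all), where it begins at the base after the dominant TSS in the sequence printed above. CCGGAAG (ETS, 8.86% of all) and the NRF1 motif (0.971% of all) were in 0 of the 15. A match is a match of letters, and binding was not measured.

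The other genes of the Polycomb system, 34 subunits of PRC2, PRC1 and the deubiquitylase PR-DUB, which removes the mark made by PRC1, were counted in the same way. Of these, 27 had a cluster in E14, with a total of 102 clusters in E14, 103 in A1 and 105 in C7. Phc1 alone held 25 of the 102 in E14. Of the 27, 10 (37%, 21.5 to 55.8) had internal clusters (35 in E14 and 36 in each clone), beside 23.1% of coding genes with a cluster. Phc1, a canonical PRC1 subunit, had 12 internal clusters in E14, followed by Mga, a transcription factor of PCGF6 complexes, with 7, Usp7, a deubiquitylase, with 6, and Asxl2, a cofactor of PR-DUB, with 4. Aebp2, a PRC2 accessory subunit, had 1.

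Differences in the presence of clusters between lines were found in 4 of the 27 with a cluster (14.8%, 5.92 to 32.5), beside 3.81% of all coding genes with a cluster. Genes with more clusters have more that can differ, and this was not adjusted for. Rybp, a subunit of variant PRC1, had 8 clusters in E14 and 9 in each clone, and the additional promoter cluster, of 2 bp, lay at chr6:100233198-100233199. Asxl1, a cofactor of PR-DUB, had 3 clusters in E14 and 4 in each clone, and the additional intronic cluster lay at chr2:153370227-153370246. No cluster was lost in both clones. Phc1 had 25, 24 and 27 clusters in E14, A1 and C7 and Asxl2 had 6, 6 and 5, so that neither changed in the same way in both clones.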

How the data were processed

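CAGE-seq of nuclear RNA was measured in 8 libraries (3 E14, 2 DKO A1, 3 DKO C7). Per the labels and the methods, the authors split the reads by barcode and aligned them end to end to mm10 with STAR 2.4.2a. Reads with a unique alignment were kept, libraries of a line were pooled, and CAGEr grouped the 5' ends into tag clusters after power-law normalization, with close clusters merged into consensus clusters across replicates. The submitters' processing notes also name SAMtools 1.3 and bedtools 2.17.0. The minimum signal of a cluster is not given in the sources used here. The study names a signal cut for its overlap of peaks between samples, but does not say that it applies to these clusters. The deposited cluster values used here are positions (start, end, dominant TSS and interquantile blocks), and their score column is 0 throughout. No count model or test could therefore be applied to them. The study states that processed bigwig signal tracks were also deposited, and these were not used here. Since only clusters that the caller kept are listed, weak initiation is missing.

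Clusters were assigned to genes and categories of GENCODE M21 by their dominant TSS, with a promoter window of 500 bp around any annotated start on the same strand and the order promoter, exon, intron. Clusters of different lines were matched if they shared 1 bp or more of 1 strand. Each share has a 95% Wilson interval, which covers counting error only, and a count of 0 is given the limit that 3 counts set. The interquantile region was read from the blocks of each cluster. Sequences came from GENCODE transcripts and RefSeq promoter windows of GRCm38. Category, overlap and block rules were tested on simulated clusters at known positions. Python 3.11.15, NumPy 2.4.6, SciPy 1.17.1 and Matplotlib 3.10.9 were used.

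All 10 genes and the targeted genes are named. Of the other Polycomb genes, those with a cluster gained or lost in both clones and the 5 with the most internal clusters in E14 (ties by name) are named, and also, after their values were seen, those with another difference between lines. Which of them had no cluster is not reported here. The genes and lists were chosen with earlier results of these data known.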

Additional observations from a re-analysis of the deposited data

Results flagged for a closer look

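Clusters on the strand opposite to the Polycomb genes lie outside the comparisons above, which used the strand of the gene, and were flagged because they were present: 14 in E14, 15 in A1 and 14 in C7 within the same gene windows. The 14 of E14 were all present in both clones, and the additional one in A1 was a single base in Mtf2, at 108100843. Jarid2 had 5 in each line, of which 3 lay in intron 4 with the 3 same-strand clusters described above, all 6 within 456 bp (chr13:44869569-44870024, mm10). Ezh2 had 2 in each line, Mtf2 3 in E14 and C7 and 4 in A1, and Suz12, Eed, Cbx7 and Kdm2b 1 each in every line. That of Eed lay at an annotated start of E230029C05Rik and that of Kdm2b at an annotated start of A930024E05Rik. Those of Suz12 and of the first Mtf2 cluster lay upstream of the gene, with the dominant TSS in E14 at -256 bp and -145 bp from the gene start. Whether opposite-strand and same-strand clusters are related was not tested.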

How the results depend on the processing

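Of the 86 values recomputed under other settings, 70 stayed close to the reported one (for counts, within 1.5 times) and 16 moved. Counts by category were equal in the 3 lines under each setting, and several other counts were 0 throughout. Many of the 70 are therefore not separate checks. With clusters of an interquantile width of at least 3 bp only, the internal clusters of the Polycomb genes fell from 41 to 21 in E14, 21 in A1 and 21 in C7. Polycomb genes with an internal cluster in E14 fell from 7 to 4. Moves of the dominant TSS numbered 15 in A1 and became 8 at 5 bp or more, 4 at 10 bp or more and 7 at promoter clusters alone. In C7 they numbered 18 and became 6, 6 and 6. The median promoter width of 18.5 bp became 56 bp in E14, 60 bp in A1 and 61 bp in C7 when the widest cluster of each gene was taken. In the 100 bases before the start, the GC box was found in 7 windows (24.7% of all windows), the CCAAT box in 5 (18.9%), and TTTCCCGC and TTTGGCGC in 0 each. Promoter windows of 100 and 1000 bp gave 50 and 36 internal clusters in each line, and coding transcripts alone 47. With 1000 bp, the internal cluster of Eed, 2 of the 3 of Cbx7 and 2 of the 9 of Mtf2 became promoter clusters. The counts of gained and lost clusters were 0 under each overlap rule, clone and width tried, which says little, since the boundaries of 79 of the 81 clusters were equal in all 3 lines and another overlap rule could hardly change the match. Leaving out each library in turn was not run, since the libraries of a line were merged. No paired analysis was possible because each line gave 1 merged set, so the replicate block was not run. Depth per library was not used here, so its effect on these positions was not tested.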
